A study of Mus musculus with 288 samples.

Results

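Arntl, Clock and Npas2 encode the activating transcription factors of the mammalian circadian clock. They were taken by gene symbol from the deposited expression tables and are 3 of the 35904 genes measured, which gives 18 gene and tissue pairs over 6 tissues. The animals were male wild-type C57BL/6J mice aged 8 weeks. For 7 days they breathed either air of constant oxygen (normoxia) or intermittent hypoxia (IH), in which oxygen was cycled between 21% and 8% in the inactive, light phase. Both groups then spent 2 days in constant darkness in normoxia, and tissues were taken on the second day, so they describe a state after exposure and not during it. Lung, liver, kidney, muscle, heart and cerebellum were collected at 8 time points spaced 3 hours apart, with 3 replicates each, giving 24 libraries per tissue and treatment and 288 in all. No allele was altered in either group, and females were not studied.

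The protein made from Arntl, BMAL1, pairs with CLOCK or with its paralogue NPAS2, and the pair binds E-box sequences to activate the Per and Cry genes, the REV-ERB genes Nr1d1 and Nr1d2, and output genes such as Dbp. PER and CRY proteins then inhibit the pair, which closes the main loop. In a second loop the REV-ERB proteins repress Arntl and the ROR proteins activate it through the same DNA elements, so that Arntl is usually most abundant when its targets are least abundant. Clock is commonly described as only weakly rhythmic in its transcript level. Npas2 can stand in for Clock in several tissues.

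The 3 genes lie on different chromosomes of GRCm38. Arntl spans chr7:113207465-113314126 on the forward strand, Clock spans chr5:76209868-76304792 on the reverse strand and Npas2 spans chr1:39193731-39363236 on the forward strand. Start regions of 300 bases, most of them upstream of an annotated start (RefSeq, GRCm38.p6), were searched on both strands. The Arntl sequences below are shown because they carry the element through which REV-ERB and ROR proteins are known to act on this gene, and capitals mark the shared word AGTAGGTNA, which was spelled out after the regions had been read. The Clock sequence is shown because it holds the half-site AGGTCA, here in capitals as its complement TGACCT. Its letters are read along the reverse strand, the direction of the gene.
Arntl site 1, chr7:113207494-113207520, forward strand: tggtcggaaAGTAGGTTAgtggtgcga
Arntl site 2, chr7:113207530-113207556, forward strand: aaggcagaaAGTAGGTCAgggacggag
Clock site, chr5:76303607-76303630, reverse strand: tttggcctcTGACCTgacagatga

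Both Arntl sites lay in untranslated sequence of the first exon, the first site in 1 annotated transcript and the second in 2. The 2 Arntl start regions overlap over most of their length and are 1 locus. The first site is in both and the second in 1 of them. The word AGTAGGTNA was in no Clock or Npas2 start region, and 0.591% of the 32851 start regions of all genes held it. The half-site AGGTCA overlapped the second Arntl word and was found in 16.3% of all start regions. The Clock site lay 119 bases before one of that gene's start sites and inside introns of 5 other transcripts. The E-box CACGTG, present in 7.15% of all start regions, and the D-box word TTATGNAA, present in 3.38%, were in none of the start regions of the 3 genes. These are matches of letters in a short window and describe no binding.

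Values are TPM, a relative abundance of transcripts that is corrected for transcript length and can be compared between genes of a library. Each library came from 1 mouse and several organs were taken per mouse, but the labels do not tie libraries to animals, so tissues are treated as separate. All 18 marker genes of the 6 tissues were highest in their own tissue. Of the 288 libraries, 8 correlated below 0.9 with the median library of their tissue. One liver library (IH, 13:30, replicate 2) held liver markers at 2.23% of the mean liver level and heart markers at 33.2% of the mean heart level, and one cerebellum library (IH, 1:30, replicate 3) held cerebellum markers at 6.93% and heart markers at 36.7%. Heart markers were above 10% of the heart level in 7 cerebellum libraries, 4 in normoxia (10.3 to 16.1%) and 3 after IH (13.2 to 36.7%). The other libraries of the 8 with low correlation were 1 lung library after IH, 2 heart libraries in normoxia, and 2 cerebellum libraries in normoxia and 1 after IH. In the lung, 25455 ± 1529 genes (SD, n = 24) were detected after IH and 22694 ± 737 in normoxia, and the scaling factor of a library was 1.13 ± 0.084 against 0.914 ± 0.063. A factor above 1 means that a typical gene has a higher TPM in that library. Single-library values below are TPM as deposited, and scaled results are given beside the lung comparisons. The tissue's own markers were under 50% of their mean level in 15 libraries: 7 lung libraries after IH (22.49 to 41.7%, against at least 90.3% in every normoxia lung library), 2 liver libraries and 1 heart library after IH, and 5 cerebellum libraries, 3 in normoxia (35.1 to 47.6%) and 2 after IH. In bulk tissue, fewer cells of a type and less RNA per cell cannot be told apart.

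Arntl was a low to moderate transcript in every tissue. In normoxia its mean TPM over 24 hours was 9.84 ± 6.40 in the lung (SD, n = 24), 9.75 ± 3.48 in the cerebellum, 7.79 ± 5.36 in muscle, 5.74 ± 4.58 in the kidney, 4.99 ± 3.91 in the liver and 4.13 ± 3.51 in the heart. Clock, the usual partner of BMAL1, averaged 13.498 ± 3.63 TPM in the lung, 9.36 ± 2.57 in the cerebellum, 7.75 ± 1.76 in the kidney, 5.62 ± 1.74 in muscle, 5.49 ± 3.17 in the liver and 3.95 ± 1.52 in the heart. Npas2, the alternative partner, was lowest of the 3 genes in every tissue, with 5.01 ± 3.29 TPM in the lung, 2.66 ± 2.29 in the kidney, 1.28 ± 1.19 in muscle, 1.24 ± 1.04 in the heart, 1.08 ± 0.436 in the cerebellum and 0.991 ± 1.51 in the liver. The SD includes any daily cycle, since the 24 libraries cover all 8 time points.

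As deposited, Clock and Npas2 had their highest mean in the lung. For Arntl the lung and cerebellum means were close, and on the log2 scale the lung stood below the cerebellum (difference -0.27, adjusted p = 0.412 by limma). The typical gene also had a higher TPM there, with a scaling factor of 1.68 ± 0.11 (SD, n = 24) in the lung and 0.593 ± 0.068 in the liver. After scaling, on the log2 scale, the order was cerebellum, muscle, liver, lung, kidney and heart for Arntl. For Clock it was liver, lung, kidney, cerebellum, muscle and heart, and for Npas2 it was lung, kidney, heart, muscle, liver and cerebellum. By limma, 18 of all 45 tissue pairs differed at an adjusted p of 0.05, 3 for Arntl, 8 for Clock and 7 for Npas2. Clock was higher in the liver than in the heart by 0.63 on the log2 scale (adjusted p = 8.7e-08), Npas2 was higher in the lung than in the cerebellum by 1.21 (adjusted p = 3.7e-05), and Arntl was lower in the heart than in the cerebellum (difference -0.79, adjusted p = 0.0189). Neighbours in an order differ least by construction, and 0 of the 15 neighbouring steps passed, at an adjusted or at an unadjusted p of 0.05. The widest step, the log2 difference of kidney over heart for Npas2, was 0.34 (95% interval ± 0.55, adjusted p = 0.244). For all genes, not ordered in this way, the share passing was 88.4% between muscle and cerebellum, 84.6% between liver and muscle, 87.6% between lung and liver, 85.8% between lung and kidney, 86.2% between kidney and heart, 88.8% between kidney and cerebellum, 73.7% between muscle and heart and 90.4% between liver and cerebellum. With TPM as deposited 9 of the 15 steps passed, and the lung stood above the liver by 1.07 for Arntl and 1.34 for Clock (log2), the reverse of the scaled order.

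The partners were present in different proportions. The ratio of mean Npas2 to mean Clock TPM in normoxia ran from 0.115 in the cerebellum to 0.371 in the lung, with 0.343 in the kidney. After IH it was 0.510 in the kidney, where Npas2 exceeded Clock in 4 of 24 libraries against 1 of 24 in normoxia. Arntl exceeded Clock in 15 of 24 muscle libraries in normoxia and in 6 of 24 lung libraries. These ratios are descriptions and were not tested between treatments.

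A daily rhythm was called where the combined rank and periodogram test reached an adjusted p of 0.05 and a 24-hour cosine fitted at p of 0.05. Arntl and Npas2 were rhythmic in lung, liver, kidney, muscle and heart under both treatments, and neither was called in the cerebellum. Clock was rhythmic in normoxia in muscle alone, and after IH in lung, liver, muscle and heart. This made 11 of 18 pairs in normoxia and 14 of 18 after IH. Among all genes tested in normoxia, the share called rhythmic was 9.36% for lung, 15.2% for liver, 16.2% for kidney, 3.44% for muscle, 0.837% for heart and 4.73% for cerebellum. After IH the shares in this order of tissues were 11.5%, 8.07%, 3.59%, 7.69%, 4.07% and 0.0421%. A call for Clock under one treatment and not the other is no test of a difference, and its amplitudes are compared directly below.

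**Figure D1:**
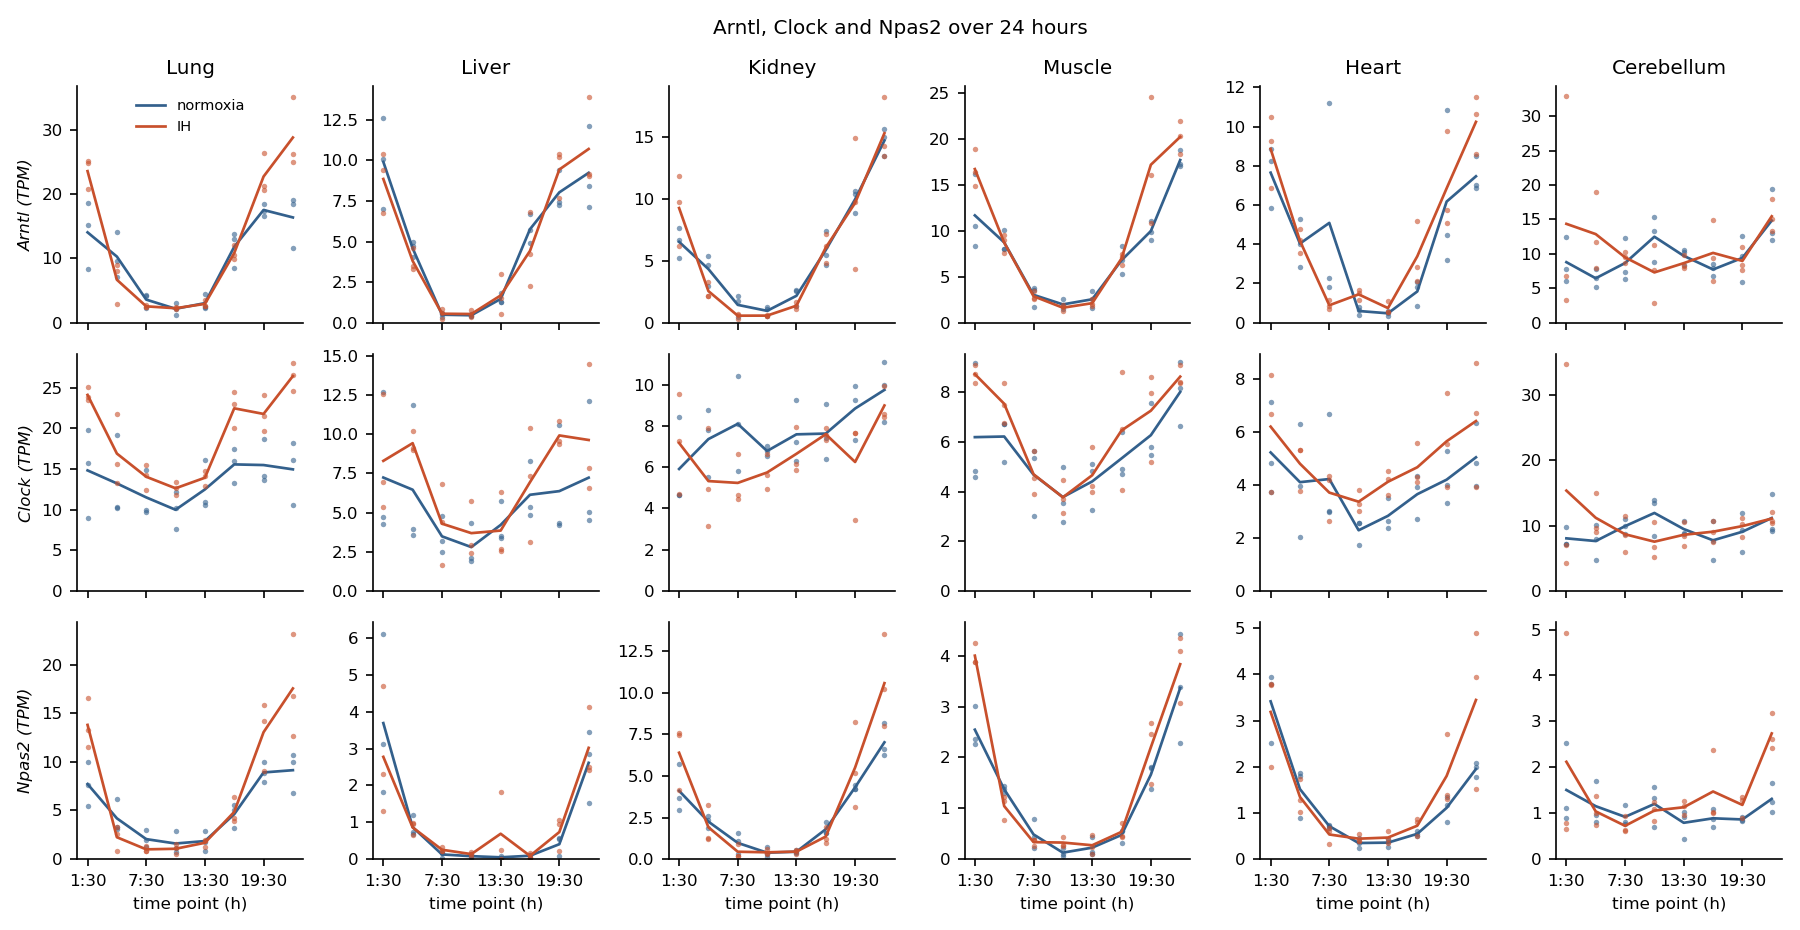
TPM of Arntl, Clock and Npas2 (vertical axis) against labelled time of day in hours (horizontal axis) in 6 tissues; points are single libraries of normoxia or IH and lines join the means of 3 replicates. Arntl and Npas2 are low from 7:30 to 13:30 and high at 22:30 and 1:30 in the 5 tissues other than cerebellum, apart from single libraries, and Clock cycles with a smaller range.

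In normoxia, lung Arntl read 19.0, 18.4 and 11.7 TPM at 22:30 and 3.12, 2.09 and 1.26 TPM at 10:30. Every library near the peak was above every library at the trough. The ratio of the highest to the lowest time-point mean was 21.8 in the liver, 16.1 in the heart, 15.4 in the kidney, 8.92 in muscle and 8.14 in the lung, but 2.30 in the cerebellum. Clock, by the same measure, ranged from 1.56 in the lung to 2.59 in the liver.

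Npas2 in the liver had the sharpest course. In normoxia it read 1.83, 3.13 and 6.12 TPM at 1:30 and 0.0285, 0.0860 and 0.0298 TPM at 13:30, a ratio of means of 76.8. Its TPM was under 0.6 in every normoxia liver library from 7:30 to 19:30, so the transcript was close to absent for most of the day. The counts behind such low values are unknown, so the size of that ratio is loose. After IH, replicate 2 at 13:30, the liver library with heart markers, read 1.82 TPM while the other replicates read 0.00930 and 0.235.

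Peak times were late in the labelled cycle. The sample labels do not say where lights-on or midnight falls on this scale. In normoxia the acrophase, the time of the fitted maximum, of Arntl was 21.8 h in the kidney, 22.1 h in the lung, 22.4 h in the liver, 23.0 h in muscle and 0.364 h in the heart. Npas2 peaked at 22.2 h in the lung, 22.7 h in the kidney, 23.6 h in muscle, 0.549 h in the liver and 0.846 h in the heart. Within the liver Npas2 followed Arntl by 2.15 h (SE 0.803) in normoxia and by 1.80 h (SE 0.941) after IH, and in the other 4 tissues the peaks were less than 1 h apart. Clock peaked with Arntl where it was rhythmic, at 23.1 h in muscle in normoxia and at 22.0 h in the lung, 23.0 h in the liver, 23.3 h in muscle and 22.7 h in the heart after IH.

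Targets and regulators of the activators peaked at other times of day. Dbp, an output gene driven directly through E-boxes, peaked 9.86 to 11.3 h after Arntl across tissues and treatments. Nr1d2, which encodes one REV-ERB repressor of Arntl, followed by 10.1 to 11.6 h, and Nr1d1, which encodes the other, followed by 6.38 to 8.64 h. Per2, an inhibitor of the activators, preceded Arntl by 7.75 to 10.7 h.

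A changed acrophase required at least 4 hours together with an adjusted p of 0.05, and 0 of the 14 pairs compared met this after IH. The unadjusted p was above 0.05 for all 14. The share of all compared genes called was 0.170% for lung, 0% for liver, 0.0392% for kidney, 0.563% for muscle and 0.894% for heart. For lung Arntl the shift was 0.167 h (95% interval -0.883 to 1.22), for liver Arntl -0.222 h (-1.15 to 0.704) and for heart Arntl -1.40 h (-2.99 to 0.197). Without the 8 libraries of low correlation the heart Arntl shift was -1.15 h with a smaller SE of 0.527 (Wald test, adjusted p = 0.561). Intervals for Clock were wider, as in the heart (-4.58 to 1.42 h), where its amplitude was small.

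**Figure D2:**
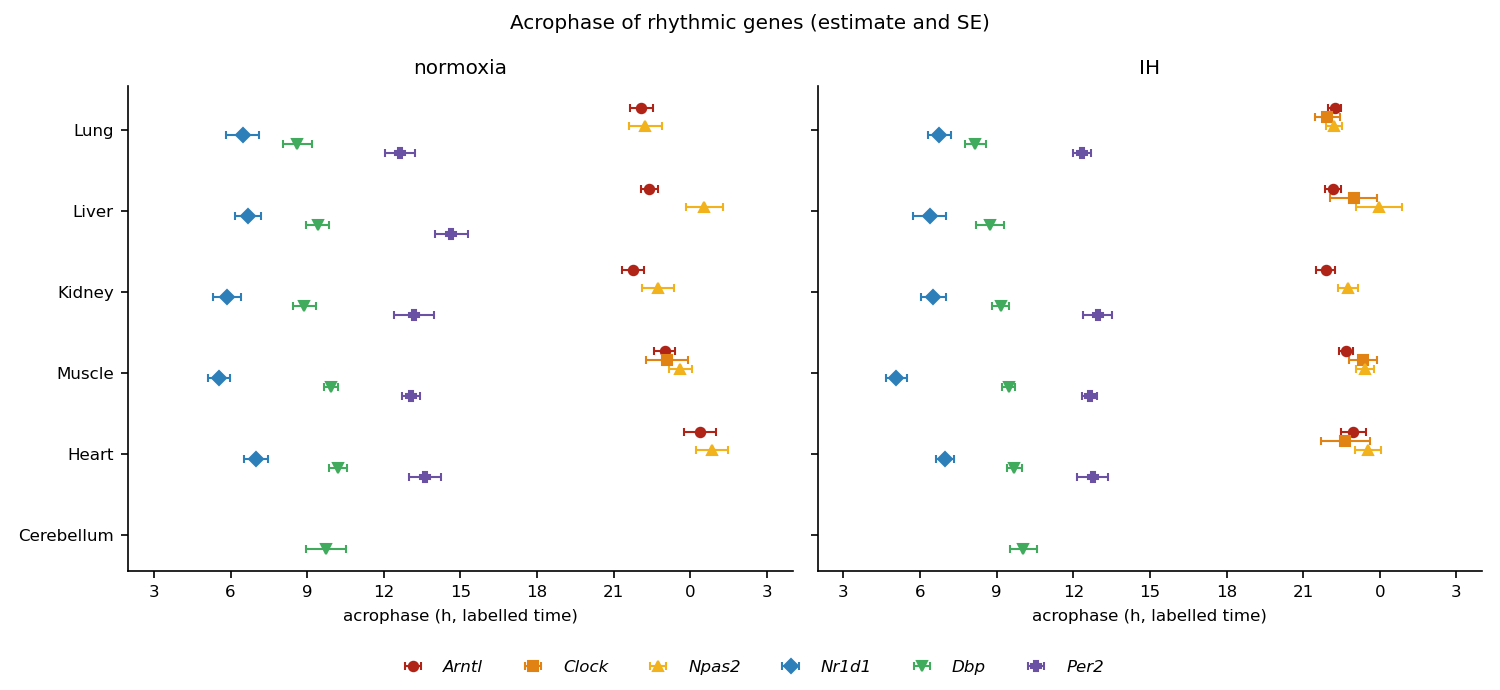
Acrophase in hours of labelled time (horizontal axis) in each tissue (vertical axis) for Arntl, Clock, Npas2, Nr1d1, Dbp and Per2 where rhythmic, in normoxia (left) and after IH (right), with standard errors as bars. The activators lie within 3 hours of the 24 h point of the labelled scale under both treatments, and Nr1d1, Dbp and Per2 lie well apart from them.

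The amplitude of the activators in the lung was higher after IH when TPM was taken as deposited. At 22:30 Arntl read 19.0, 18.4 and 11.7 TPM in normoxia and 25.0, 26.2 and 35.1 TPM after IH. At 1:30 it read 18.6, 8.36 and 15.2 TPM against 20.7, 24.9 and 25.1 TPM, and at 19:30 it read 18.5, 16.7 and 17.4 TPM against 26.3, 21.2 and 20.6 TPM. All IH libraries were above all normoxia libraries at these 3 time points of 8 as deposited. With scaled TPM this held at 1 of 8, since the groups then overlapped at 1:30 and 19:30. In the other direction, all IH libraries were below all normoxia libraries at 0 time points as deposited. When scaled, this held at 1 of 8, 7:30. The share of all genes that separate in this way at a time point was not counted, here or for the separations given below. At 10:30, the trough, the values were 2.05, 2.45 and 2.22 TPM after IH and lay within the normoxia range.

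Npas2 had the same form in the lung. At 22:30 it read 10.7, 9.95 and 6.81 TPM in normoxia and 12.7, 16.8 and 23.2 TPM after IH, without overlap, and at 1:30 10.0, 5.50 and 7.63 TPM against 11.5, 13.3 and 16.6 TPM. When scaled, the groups overlapped at 1:30. Scaled IH libraries were all below the normoxia libraries at 2 of 8 time points, 4:30 and 7:30, against 0 as deposited. At 4:30 the order turned, with 6.15, 3.09 and 3.34 TPM in normoxia and 0.872, 2.58 and 3.29 TPM after IH, and the IH mean was also the lower at 7:30, 10:30 and 13:30. The 0.872 TPM came from replicate 1, a library with lung markers at 37.5% of their mean level. IH libraries with lung markers under 50% also fell at 1:30, 7:30, 10:30, 13:30 and 19:30. At 13:30 that library, replicate 1, read 1.21 TPM. The other IH replicates there read 1.84 and 1.98 TPM, against a normoxia mean of 1.85 TPM. Clock differed more broadly: its IH mean was the higher at 8 of 8 time points as deposited and at 7 of 8 when scaled, and at 22:30 it read 16.1, 18.2 and 10.6 TPM in normoxia and 24.6, 28.1 and 26.6 TPM after IH.

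In cosine fits to TPM, the lung amplitude of Arntl was 8.01 TPM in normoxia and 13.9 TPM after IH, a difference of 5.88 (SE 1.34, 95% interval 3.18 to 8.58, Wald test, Benjamini-Hochberg adjusted p = 0.0374). That of Npas2 was 4.14 and 8.42 TPM, a difference of 4.28 (SE 1.01, interval 2.24 to 6.31, adjusted p = 0.0473). That of Clock was 2.52 and 6.69 TPM, a difference of 4.17 (SE 1.19, interval 1.78 to 6.57, adjusted p = 0.112), which did not pass. Thus 2 of 3 genes were called in the lung, where 0.284% of compared genes were. With libraries of the same time point and replicate number taken as a block, neither passed (adjusted p = 0.194 for Arntl and 0.163 for Npas2). Without the 15 libraries of low tissue markers the lung differences were 6.07 for Arntl (SE 1.42, adjusted p = 0.0271) and 4.72 for Npas2 (SE 1.08, adjusted p = 0.0269), as large as with them. Of the remaining 11 pairs 0 were called, and neither were other genes: 0% of those compared in liver, 0% in kidney, 0% in muscle and 0% in heart. The fitted amplitude was higher after IH in 13 of the 14 pairs, Npas2 in the liver being the exception with 1.55 and 1.27 TPM. Without the 8 libraries of low correlation these were 1.55 and 1.44 TPM. Without the 15 of low tissue markers they were 1.55 and 1.54 TPM. Both sets include the liver library with heart markers. All compared genes also leaned this way in muscle and heart. The median fold of the amplitude was 1.43 for the 3 genes against 1.58 for all genes in muscle, and 1.22 against 1.61 in the heart. In the liver it was 1.08 for the 3 genes against 1.01 for all genes. In the kidney, where Clock was not compared, it was 1.36 for Arntl and Npas2 against 0.665 for all genes. Of the 14 pairs, 5 had an unadjusted p of at most 0.05.

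This call depended on the scale. With TPM scaled per library the difference in the lung was 2.91 for Arntl (SE 1.14, adjusted p = 0.544) and 2.56 for Npas2 (SE 0.861, adjusted p = 0.465). On the log2 scale, where an amplitude reflects the peak-to-trough ratio and a factor common to a treatment drops out, Arntl had 1.44 and 1.80 (difference 0.36, interval 0.03 to 0.70, adjusted p = 0.710), Npas2 1.28 and 1.87 (difference 0.60, interval 0.22 to 0.97, adjusted p = 0.612) and Clock 0.28 and 0.45 (difference 0.17, interval -0.01 to 0.35, adjusted p = 0.761). None of the pairs compared passed on that scale, 5 of 15 had an unadjusted p of at most 0.05, and 12 of 15 were higher after IH. The share of genes called was 0.0283% for lung and 0% for liver, 0% for kidney, 0% for muscle and 0% for heart. The median fold of the amplitude (IH over normoxia) in TPM was 2.03 for the 3 genes and 1.62 for the 3524 lung genes compared. The median log2 amplitude difference was 0.36 against 0.01. Within each of the 3 replicate numbers the TPM amplitude of all 3 genes in the lung was higher after IH. Without replicate 2, or without replicate 3, 0 amplitudes were called. Without the lung library that stands apart the adjusted p was 0.0488 for Arntl and 0.0568 for Npas2.

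**Figure D3:**
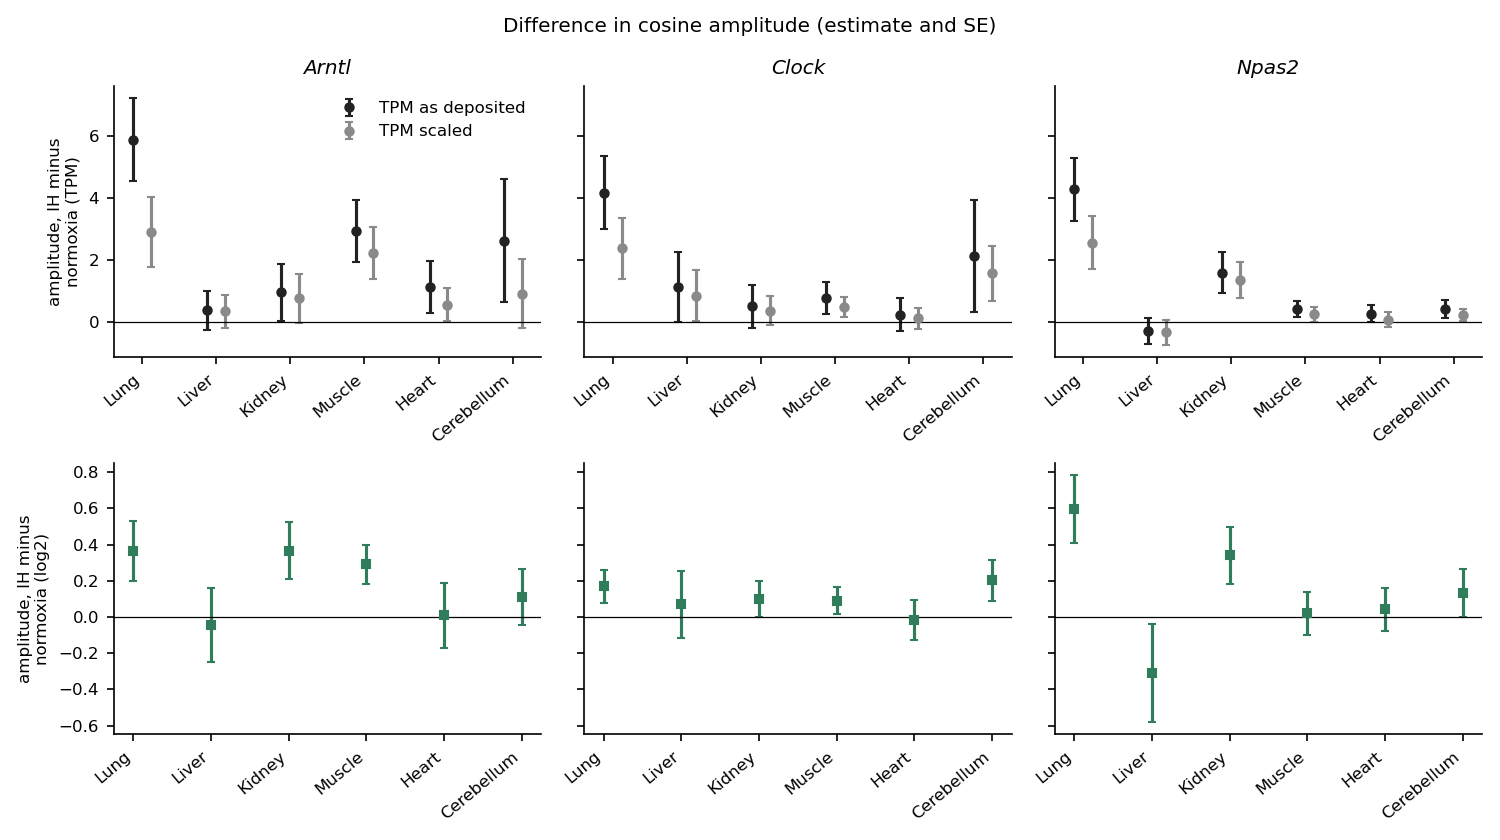
Difference of the fitted 24-hour amplitude, IH minus normoxia, by tissue for each gene, in TPM as deposited and scaled (upper row) and on the log2 scale (lower row), with standard errors as bars. The lung differences in deposited TPM, 5.88 for Arntl, 4.17 for Clock and 4.28 for Npas2, shrink when libraries are scaled.

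**Figure D4:**
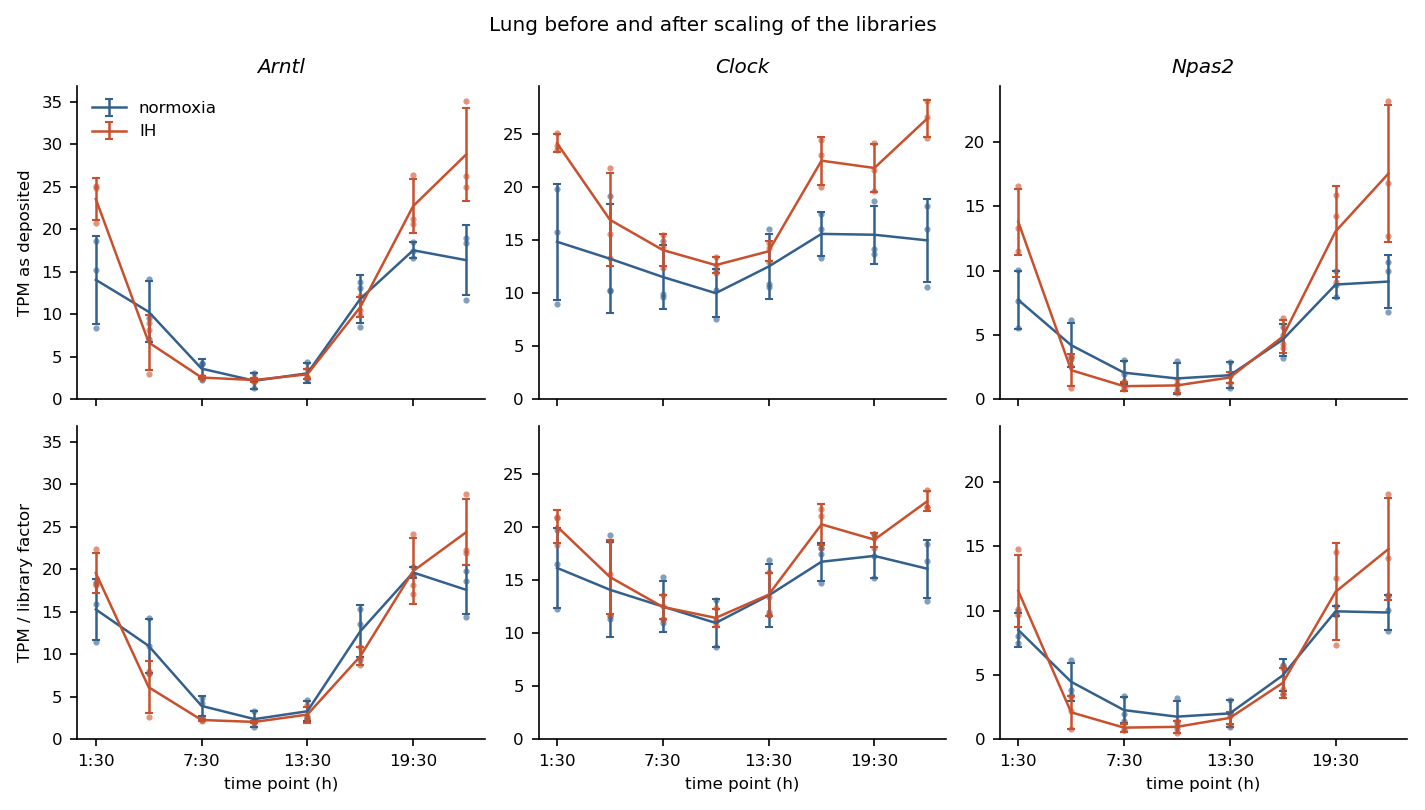
Lung TPM of the 3 genes by labelled time in hours, as deposited (upper row) and divided by the library factor (lower row), for normoxia and IH, with points for single libraries, lines for means and bars for the SD of 3 replicates. The gap at 22:30 is smaller after scaling, and at 4:30 the Arntl and Npas2 means are lower after IH in both rows.

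The MESOR, the midline of the fitted curve, gave 4 calls among the 14 pairs. In the lung Arntl moved from 9.84 to 12.5 TPM (adjusted p = 0.0120), Clock from 13.498 to 19.0 TPM (adjusted p = 3.2e-07) and Npas2 from 5.01 to 6.91 TPM (adjusted p = 0.0186). In the heart Clock moved from 3.95 to 4.87 TPM (adjusted p = 0.0357). The share of compared genes called was 65.6% for lung, 28.3% for liver, 12.4% for kidney, 13.4% for muscle and 47.4% for heart, so a MESOR call in the lung or heart did not set a gene apart. With scaled TPM the lung difference was 0.131 for Arntl (adjusted p = 0.896), 0.503 for Npas2 (adjusted p = 0.469) and 2.13 for Clock (adjusted p = 0.0059), and on the log2 scale the sign turned for Arntl and Npas2. Clock in the lung was the MESOR difference called on every scale.

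For mean expression over 24 hours, 0 of the 18 pairs passed limma at an adjusted p of 0.05, while the unadjusted p was at or below 0.05 for 2. The share of genes passing was 70.4% for lung, 24.2% for liver, 19.8% for kidney, 10.4% for muscle, 45.2% for heart and 15.0% for cerebellum. These shares were not stable: with the number of detected genes as a term the heart had 257 genes passing in place of 5780 (it detected 25124 ± 1719 genes in normoxia and 21447 ± 688 after IH), the liver had 110 without replicate 1 in place of 2748, and the cerebellum had 48 without replicate 2 in place of 2234. For Arntl the log2 difference of IH from normoxia lay between -0.21 in the kidney (SE 0.37) and 0.09 in the heart (SE 0.33). For Npas2 it lay between -0.22 in the lung (SE 0.35) and 0.22 in the liver (SE 0.30). Because the daily cycle enters the spread, intervals for these genes were wide, from -0.86 to 0.53 for lung Arntl.

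Clock, with its flatter cycle, was measured more tightly. Its log2 difference was 0.42 in the liver (SE 0.17, adjusted p = 0.0569), 0.18 in the lung (SE 0.10, adjusted p = 0.0931), 0.18 in the heart (SE 0.10, adjusted p = 0.144), 0.09 in muscle, 0.05 in the cerebellum and -0.19 in the kidney (SE 0.08, adjusted p = 0.0661), all by limma. With time point as a further term the differences in liver, lung, heart and kidney passed. The scaling moved the median of all lung genes from 0.21 to -0.08 on the log2 scale. Relative to that median, lung Clock stood 0.27 higher as deposited and 0.26 higher when scaled, lung Arntl 0.09 lower on both, and lung Npas2 0.17 and 0.14 lower.

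The response of the lung was set against each other tissue with an interaction term. Of 15 comparisons 1 passed, Clock in the lung against the kidney, with a log2 difference of responses of 0.31 (SE 0.12, limma, adjusted p = 0.0215). The share of all genes passing was 64.4% for the kidney as the other tissue, 56.2% for liver, 58.9% for muscle, 67.0% for heart and 53.4% for cerebellum. For Arntl the differences of responses lay between -0.31 and 0.02, with standard errors of 0.37 to 0.54, and for Npas2 between -0.54 and -0.29. Without replicate 2 the Clock difference between lung and kidney was 0.13 (adjusted p = 0.482), and without replicate 3 it was 0.31 (adjusted p = 0.0607).

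In the liver Clock separated by replicate number. Replicate 3 averaged 8.79 TPM in normoxia against 3.66 and 4.01 in replicates 1 and 2, and 9.67 TPM after IH against 5.35 and 5.99. Within each number the IH mean was higher. Liver Arntl was close between treatments, with MESORs of 4.99 and 5.0 TPM and amplitudes of 5.03 and 5.41 TPM.

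In the kidney the Clock mean after IH was higher than in normoxia at 1 of 8 time points. Replicates 1 and 2 averaged 8.46 and 8.34 TPM in normoxia and 6.21 TPM each after IH, while replicate 3 went from 6.46 to 7.45 TPM. Kidney Npas2 peaked at 22:30 with 8.18, 6.61 and 6.27 TPM in normoxia and 10.2, 7.98 and 13.6 TPM after IH, which overlapped. Its amplitude was 2.90 and 4.499 TPM (difference 1.60, SE 0.662, adjusted p = 0.709).

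Muscle was the tissue in which all 3 genes were rhythmic under both treatments. Arntl there had amplitudes of 6.82 and 9.76 TPM (difference 2.94, SE 0.998, adjusted p = 0.398), and at 22:30 it read 17.3, 18.8 and 17.0 TPM in normoxia and 18.3, 20.3 and 22.0 TPM after IH. Npas2 at 1:30 read 3.02, 2.26 and 2.36 TPM in normoxia and 3.88, 3.87 and 4.25 TPM after IH, without overlap, whereas at 4:30 it read 1.44, 1.297 and 1.38 TPM against 0.778, 1.21 and 1.13 TPM, without overlap in the other direction. Clock amplitudes were 1.68 and 2.45 TPM (difference 0.773, SE 0.503, adjusted p = 0.419).

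In the heart 2 normoxia libraries stood apart and held the 2 highest Arntl values of that group. At 7:30 replicate 3 read 11.2 TPM against 2.26 and 1.81, and at 19:30 it read 10.8 TPM against 3.18 and 4.49. Without the libraries that stand apart the heart MESOR of Arntl was 3.51 TPM in normoxia and 4.57 TPM after IH (adjusted p = 0.0191), whereas with them it was 4.13 and 4.57 TPM (adjusted p = 0.556). Npas2 in these libraries, at 0.681 and 1.35 TPM, was near its other replicates.

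In the cerebellum, a tissue dominated by granule neurons, none of the 3 genes had a called rhythm, and the fraction of variance explained by the cosine was 0.0297 for Arntl in normoxia. The highest value of each gene after IH came from one library, replicate 1 at 1:30, with 32.9 TPM for Arntl, 34.7 TPM for Clock and 4.93 TPM for Npas2. That library stood apart, and replicate 3 of the same time point, with heart markers, read 3.34, 4.26 and 0.651 TPM. At 22:30 cerebellar Npas2 read 1.65, 1.25 and 1.03 TPM in normoxia and 2.61, 3.18 and 2.43 TPM after IH, without overlap.

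To find genes with the most similar pattern, scaled time-point means centred within tissue and treatment were correlated over 96 points for 9876 genes. These points share libraries and a daily cycle, so the coefficients are descriptions. Closest to Arntl were Leo1, a component of the PAF1 transcription elongation complex (Pearson r 0.943), Dtx4, a ubiquitin ligase of the Deltex family (0.920), Npas2 (0.881), Clock (0.868) and Ypel2 (0.860). Closest to Clock were Arntl (0.868), Dtx4 (0.837), Leo1 (0.821), Grk5 (0.786) and Rnf144a (0.761). Closest to Npas2 were Arntl (0.881), Dtx4 (0.862), Leo1 (0.828), Rnf144a (0.788) and Gm13889 (0.769). The most opposite were Dbp (-0.919), Per3 (-0.916) and Nr1d2 (-0.879) for Arntl. For Npas2 they were Per3 (-0.944), Tef (-0.883) and Nr1d2 (-0.844). For Clock they were Dbp (-0.836), Ciart (-0.810) and Per3 (-0.808).

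The other clock genes, a list of 18 repressors, nuclear receptors, PAR bZIP factors and the paralogue Arntl2, were read beside the activators. In the lung 7 of 17 tested rose in mean expression and 0 fell at an adjusted p of 0.05 by limma, where 70.4% of all genes passed in either direction, and their median log2 difference was 0.24 against -0.08 for all genes. Liver, kidney and cerebellum had 0 in either direction, muscle had 1 that rose, and the heart had 2 that rose and 1 that fell of 17, where 45.2% of all genes passed. The lung amplitude in deposited TPM was higher after IH for 15 of 16 compared. Of these 3 were called, where 0.284% of all compared genes were. Per3 and Nr1d2 (difference 22.47 TPM, Wald test, adjusted p = 0.0297) were among those called. In the liver it was higher for 3 of 13, in the kidney for 11 of 14, in muscle for 14 of 14 and in the heart for 14 of 15.

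Arntl2 encodes BMAL2, a paralogue of BMAL1 that also pairs with CLOCK. Its lung TPM as deposited ranged from 1.12 to 3.72 with a median of 2.20 in normoxia, and from 5.0 to 37.7 with a median of 8.63 after IH, without overlap between the 24 libraries of each group. The share of lung genes that separate fully in this way was not counted, and the range of scaled values was not computed. In the lung 70.4% of all genes passed limma at an adjusted p of 0.05. The log2 difference was 1.65 (SE 0.16, limma, adjusted p = 1.3e-12), or 0.50 (adjusted p = 0.00083) with the number of detected genes, which also differed between the groups, as a term. In the heart Arntl2 fell by 0.68 on the log2 scale (adjusted p = 7.6e-07), and with the same term that difference was -0.42 (adjusted p = 0.187). Arntl itself did not pass the same test in either tissue. The mean lung TPM of Arntl2 after IH, 11.4, was close to that of Arntl, 12.5.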

How the data were processed

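Reads were pseudoaligned by the authors with kallisto, and the deposited gene tables hold TPM, with library sums from 989211 to 999188. They tested with DESeq2 on estimated counts that were not used here. Without counts, sequencing depth and the counting error it sets are unknown. No libraries held identical values. The submitters' processing notes name FastQC 0.11.3, bcl2fastq and kallisto.

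Members and gene lists were chosen with earlier results of these data known. Analyses used Python 3.11.15 (scipy 1.17.1) and limma 3.58.1 in R 4.3.3. For level and mean expression, TPM was scaled by the median of ratios and log2-transformed after adding a pseudocount of 0.5, in genes averaging at least 1 TPM, and limma was fitted with an intensity trend over all genes. Calls of changed mean expression needed an adjusted p of 0.05 and 1.5-fold, and counts at adjusted p alone are given. Rhythm combined JTK and Lomb-Scargle tests at 24 hours by the Fisher method in genes reaching 1 TPM. CircaCompare was re-implemented as joint cosine fits with Wald tests. Genes rhythmic under at least 1 treatment were compared, whereas the authors compared curve parameters in genes rhythmic under both. Clock in lung, liver and heart was thus compared although it was not called rhythmic in normoxia. P-values were adjusted by Benjamini-Hochberg over all genes compared, all tests were 2-sided, and scripts were tested on simulated data. P-values measure the spread between libraries, and a fold change of low genes is understated on the log2 scale with a pseudocount.

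Named genes were the 3 activators, 5 of the 18 other clock genes by value (the result of 1 more is not reported here), and for each activator the 5 most similar and 3 most opposite patterns. Per3, Tef and the other listed names come from those ranks or were chosen after their values were seen. Alternatives were other pseudocounts, filters, scaling, a time point term, a replicate block, leaving out each replicate number, and, chosen after seeing the data, leaving out 8 libraries of low correlation or 15 of low tissue markers and a term for genes detected.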

Additional observations from a re-analysis of the deposited data

Results flagged for a closer look

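The response of Clock to IH, measured as the log2 difference of mean expression from normoxia, differed between the lung and the kidney by 0.31 (SE 0.12, limma interaction, adjusted p = 0.0215). With each tissue scaled apart, Clock was 0.18 higher in the lung and 0.19 lower in the kidney on the log2 scale, and neither passed on its own. The interaction was fitted with the libraries of both tissues scaled together, so these values do not add up to 0.31. The sign held within replicate numbers 2 and 3 in the lung, with 0.33 and 0.32, and in replicate number 1 it was -0.12. In the kidney it was -0.15, -0.43 and 0.01 in numbers 1, 2 and 3. Without replicate 2 the difference was 0.13 (adjusted p = 0.482), so it rests largely on that number. Shares of all genes with a different response were high between these tissues (64.4%), and the cause was not tested.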

How the results depend on the processing

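The replicate numbers come from the labels, and in no tissue did every pair of same-numbered normoxia and IH libraries deviate together: deviations correlated above 0.1 in 5 of 24 pairs (lung) to 16 of 24 (liver, median correlation 0.22). The replicate block paired these libraries for mean expression and amplitude. For lung responses it instead paired the lung with the other tissue of the same treatment, time point and number. Median correlations of those pairs ran from -0.088 (liver) to 0.074 (muscle). For neighbouring levels it joined same-numbered normoxia libraries of all tissues. With the replicate block, 4 of 18 mean-expression differences passed in place of 0, all for Clock (lung, liver, kidney and heart), amplitude calls went from 2 to 0, lung responses that differed from another tissue from 1 to 2, and neighbouring levels from 0 to 1. Mean-expression calls at adjusted p alone were 1 with TPM as deposited (lung Clock, 0.47), 4 with a time point term, 1 with genes detected as a term, 1 without the 8 libraries of low correlation and 0 to 2 when a replicate was left out. Changed amplitudes were 0 with scaled TPM, 0 on log2, 1 without the 8 libraries, 2 without the 15 libraries of low tissue markers and 0 to 2 with a replicate left out; MESOR calls were then 1 to 4. Rhythm calls were 21 to 24 against 25 with a replicate left out. Differing lung responses were 2 with TPM as deposited, 2 with a time point term and 0 to 1 without a replicate. Neighbouring levels differed in 9 cases with TPM as deposited and in 0 to 2 without a replicate. The sign turned for the lung MESOR on log2 (Arntl -0.17, Npas2 -0.22), for liver minus lung with TPM as deposited (Arntl -1.07, Clock -1.34) and for Clock there without replicate 3 (-0.29, and up to 0.35 without replicate 1). The cause was not tested.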
